A study of Drosophila melanogaster with 6 samples.

Results

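The Netrin and Slit guidance genes of Drosophila melanogaster comprise 8 genes: the ligand genes NetA, NetB and sli, and the receptor genes fra, unc-5, robo1, robo2 and robo3. They were chosen by name, as the ligands and receptors of these pathways, out of 23932 features in the deposited count table, and each name matched 1 feature. All 8 passed the filter on low counts and were among the 9932 features tested.

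Netrins are secreted, laminin-related proteins. They attract growing axons through Frazzled, the fly DCC-type receptor encoded by fra, and repel them through Unc-5, which can act alone or together with Frazzled. Slit is a secreted protein that repels axons and cells through the Roundabout receptors encoded by the robo genes. In the fly optic lobe, NetB and Frazzled take part in layer choice of photoreceptor axons in the medulla, and Slit and Robo receptors keep neighbouring cell populations of the optic lobe apart.

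The series measured RNA of T4/T5 neurons, the direction-selective neurons that send dendrites into the medulla (T4) or lobula (T5) and axons into the lobula plate. In the Drgx knockdown group the driver R23G12-Gal4 expressed UAS-DRGX-IR, a hairpin against Drgx, a paired-like homeobox gene. In the control group the same driver expressed UAS-cherry-IR, a hairpin against the cherry fluorescent protein. Both genotypes also held UAS-CD8-GFP, a membrane-bound GFP by which cells were sorted from brains of climbing larvae of the third instar raised at 25 °C. Each group had 3 libraries, and the labels do not say whether these came from separate crosses or how many animals were pooled, so that p-values measure the spread between these libraries, which may be technical. The labels place the Drgx hairpin among second-chromosome elements and the cherry hairpin among those of the third chromosome, and an effect of transgene position cannot be told apart from that of the knockdown.

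Library totals were 29587960 to 37378266 counts in knockdown and 31716526 to 44054609 counts in control. Drgx itself had 729, 729 and 663 CPM (counts-per-million, normalised with TMM factors) in the knockdown libraries, against 2110, 2156 and 2160 CPM in the control libraries, and fell to 33.0% of control. The T4/T5 transcription factor genes acj6, TfAP-2 and SoxN had mean levels of 689, 561 and 1173 CPM in knockdown. In control they had 593, 578 and 1780 CPM. Of the 9 T4/T5 markers 4 fell (bi, dac, SoxN and Sox102F) and 0 rose in the edgeR test. That is 44.4% called, against 6.21% of all tested features. Sox102F fell to 24.1% of control, dac to 54.3%, SoxN to 65.9% and bi to 73.7%. Knockdown replicate 2 stood apart: 325 tested features had a count of 0 there, where the other 5 libraries had 118 to 171 such features. Because sorted cells were measured in bulk, fewer cells with a transcript and less transcript per cell cannot be told apart.

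Of the 8 genes, 6 differed between Drgx knockdown and control at an edgeR adjusted p under 0.05. NetA, NetB and fra rose, while unc-5, robo2 and robo3 fell. sli and robo1 did not pass the test. Over all tested features 6.21% were called, 2.10% higher and 4.11% lower. Among features with a mean level between 100 and 1000 CPM the share was 11.3%. NetA lies in the band from 10 to 100 CPM, where it was 6.49%. robo2 averages above 1000 CPM over the libraries, where no share was taken. In the same 6 genes no knockdown library overlapped a control library, which was so for 23.3% of all tested features.

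**Figure D1:**
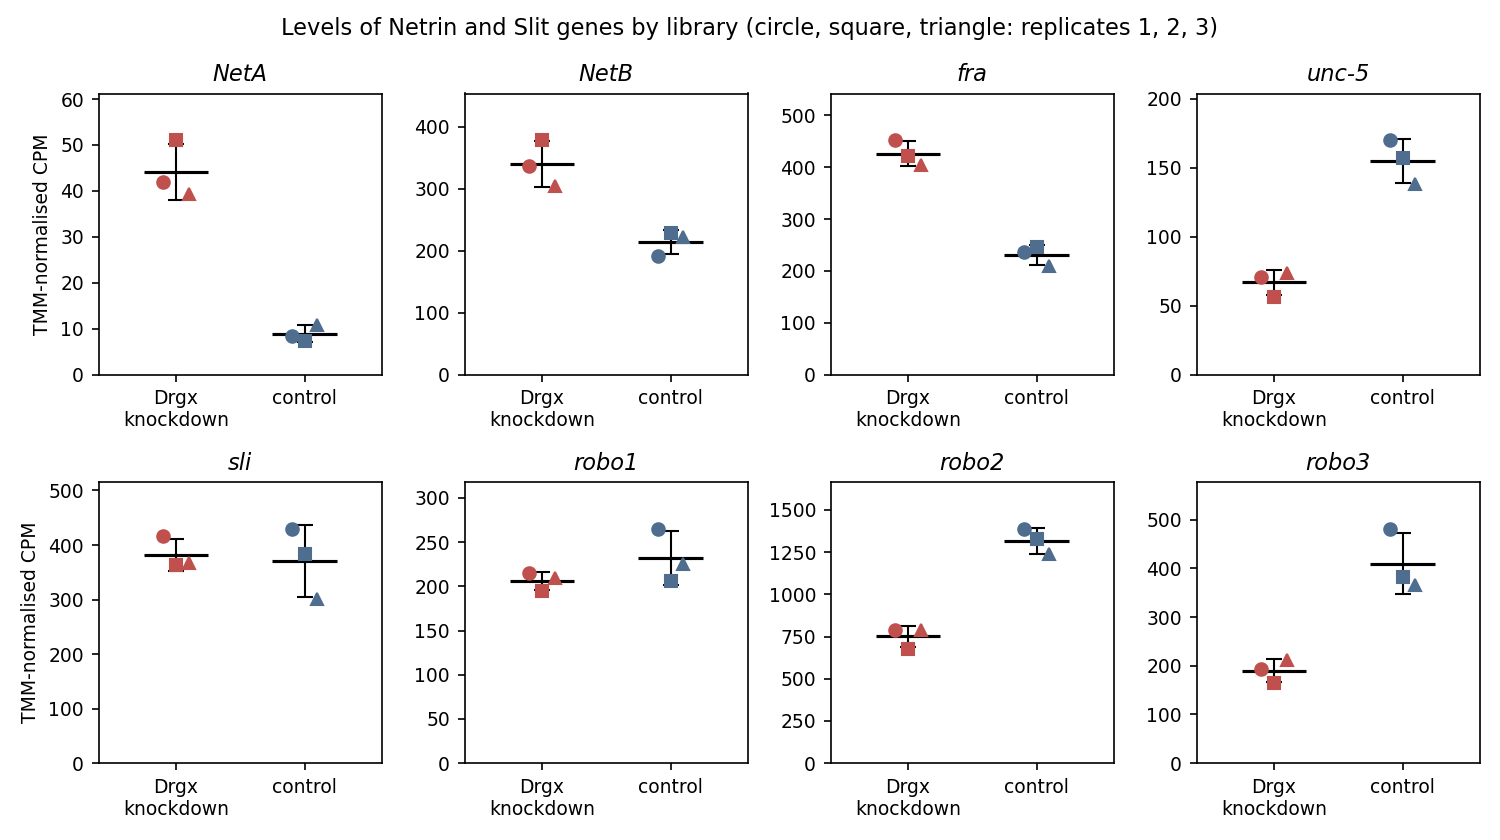
TMM-normalised CPM (vertical axes, each from 0) of the 8 genes in the 3 Drgx knockdown libraries and the 3 control libraries. Points are libraries, horizontal bars the group means and whiskers the SD. NetA, NetB and fra lie higher in every knockdown library, unc-5, robo2 and robo3 lie lower in every knockdown library, and the groups overlap for sli and robo1.

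NetA (FBgn0015773, X, 14604012 to 14653928, minus strand, BDGP6.54) encodes a Netrin ligand. Its level was 42.0, 51.0 and 39.3 CPM in knockdown replicates 1, 2 and 3, against 8.46, 7.24 and 10.9 CPM in control replicates 1, 2 and 3. All knockdown libraries were above all control libraries by a wide gap. The mean was 44.1 ± 6.13 CPM in knockdown and 8.85 ± 1.84 CPM in control (SD, n = 3 each). NetA rose 4.98-fold, or by 2.32 on the log2 scale (SE 0.187, edgeR adjusted p 3.74e-05). Among the 8 genes NetA had the largest fold change and the lowest control level in CPM.

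NetB (FBgn0015774, X, 14686038 to 14749376, minus strand) encodes the other Netrin. It had 336, 378 and 304 CPM in the knockdown libraries, against 192, 229 and 222 CPM in the control libraries. The groups did not overlap. NetB rose 1.58-fold, a log2 fold change of 0.66 (SE 0.0966, edgeR adjusted p 0.00211).

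NetA and NetB are neighbours, 32109 bp apart, with 1 annotated gene between them. That gene, CG5321, averaged 0.547 CPM in knockdown and 0.120 CPM in control and was not tested. Of 1625 tested features on the X, 24 were called higher and 64 lower in knockdown. The direction of both Netrin genes was thus the less common one there, as it was over all tested features (209 higher and 408 lower). The labels do not give the sex of the larvae.

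To compare the genes with each other, levels were divided by exon length (RPKM, the TMM-normalised CPM divided by kilobases of exon). NetB stayed the more abundant Netrin in both groups, at 41.6 ± 4.51 RPKM in knockdown and 26.3 ± 2.42 RPKM in control, where NetA had 13.2 ± 1.83 RPKM in knockdown and 2.65 ± 0.55 RPKM in control (SD, n = 3 each). NetA made up 23.4% to 24.8% of the summed Netrin RPKM in knockdown libraries and 7.16% to 10.7% in control libraries. The NetA to NetB ratio per library averaged 0.317 ± 0.0124 in knockdown and 0.101 ± 0.0219 in control. The 2 groups of ratios did not overlap, and the exact two-sided permutation p was 0.1, the smallest that 3 libraries against 3 can give. Given the range of each gene in each group, this p was fixed in advance and adds no support. The summed Netrin level was 49.0 to 61.5 RPKM in knockdown and 26.0 to 30.4 RPKM in control.

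The Netrin receptor genes fra and unc-5 moved in opposite directions. fra (FBgn0011592, 2R, 12529053 to 12564184, plus strand), for the attractive receptor, had 452, 422 and 405 CPM in the knockdown libraries, against 236, 246 and 209 CPM in the control libraries. Every knockdown library was above every control library. fra rose 1.85-fold, a log2 fold change of 0.89 (SE 0.0774, edgeR adjusted p 6.48e-05).

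unc-5 (FBgn0034013, 2R, 15340472 to 15368300, plus strand), for the repulsive receptor, had 70.6, 56.6 and 73.5 CPM in the knockdown libraries, against 169.8, 157 and 138 CPM in the control libraries. The highest knockdown library was well under the lowest control library. unc-5 fell to 43.2% of control, a log2 fold change of −1.21 (SE 0.121, edgeR adjusted p 1.80e-04). Of its exons 227 bp, or 4.34%, overlap Pms2 on the other strand, and strand use in counting is not stated in the sources used here. Pms2 averaged 14.1 CPM in knockdown and 15.4 CPM in control.

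In control cells the transcripts of fra and unc-5 were near each other per length, and in knockdown cells fra was the more abundant by far. fra held 82.0% to 86.1% of their summed RPKM in knockdown libraries and 53.5% to 56.5% in control libraries. The fra to unc-5 ratio was 5.30, 6.17 and 4.57 in knockdown replicates 1, 2 and 3, against 1.15, 1.30 and 1.26 in control replicates 1, 2 and 3. This ratio, which does not depend on how libraries are scaled, was 4.30-fold higher in knockdown (log2 difference 2.11, exact two-sided permutation p 0.1, the smallest possible). Because fra was higher and unc-5 lower in every knockdown library, this p was fixed in advance and adds no support. The sum of both receptors was 77.5 to 85.0 RPKM in knockdown and 59.5 to 69.7 RPKM in control, so it moved less than their ratio.

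**Figure D2:**
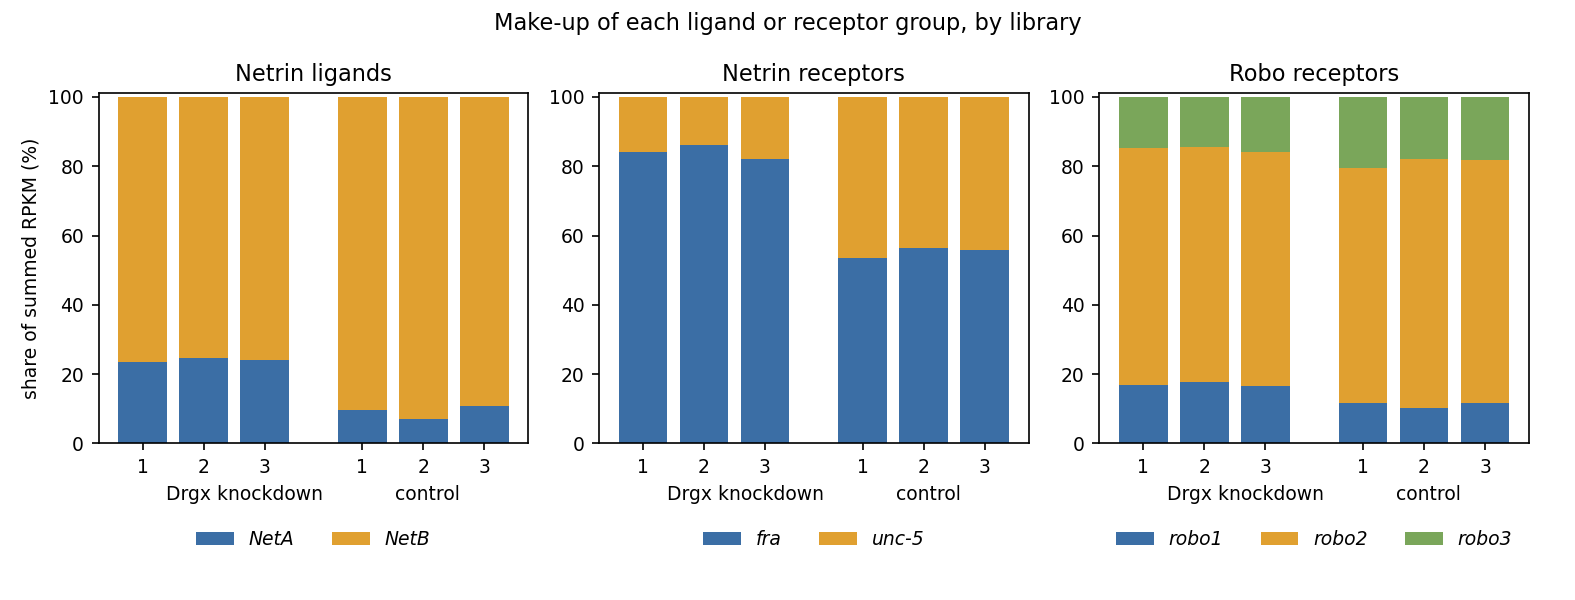
Share of the summed RPKM (vertical axis, percent) held by each gene, with 1 bar per library. Panels show the Netrin ligands, the Netrin receptors fra and unc-5, and the Robo receptors. The share of fra is 82.0% to 86.1% in the knockdown libraries and 53.5% to 56.5% in the control libraries, and that of robo2 is 67.6% to 68.4% in knockdown and 67.7% to 71.8% in control.

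On the Slit side, the ligand gene sli (FBgn0264089, 2R, 15869495 to 15922118, minus strand) had 416, 364 and 367 CPM in the knockdown libraries, against 429.6, 383 and 300.2 CPM in the control libraries. The groups overlapped, and the spread was wider in control. The log2 fold change was 0.04 (SE 0.118, edgeR adjusted p 0.919), with a 95% interval of −0.22 to 0.31, or 0.858-fold to 1.24-fold. Its sign was negative without knockdown replicate 1 (−0.02) or control replicate 3 (−0.09).

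robo1 (FBgn0005631, 2R, 22692524 to 22700970, minus strand), for the receptor that mediates midline repulsion in the fly embryo, also did not pass. It had 215, 195 and 209 CPM in the knockdown libraries, against 265, 206 and 225 CPM in the control libraries. The groups overlapped narrowly. The log2 fold change was −0.17 (SE 0.0955, edgeR adjusted p 0.446), with a 95% interval of −0.38 to 0.04, or 0.766-fold to 1.03-fold.

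robo2 (FBgn0002543, 2L, 1380086 to 1420453, minus strand), which in the fly embryo acts in midline repulsion and in the lateral position of axon tracts, was the most abundant of the 8 genes. Its level was 790.2, 679 and 786 CPM in the knockdown libraries, against 1388, 1329 and 1237 CPM in the control libraries. No libraries overlapped between groups. robo2 fell to 57.0% of control, a log2 fold change of −0.81 (SE 0.0707, edgeR adjusted p 6.51e-05).

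Noncoding genes overlap 41.0% of the exon length of robo2. The antisense gene asRNA:CR44897 shares 1422 bp and had 16 to 20 counts in knockdown libraries and 24 to 66 in control libraries. lncRNA:CR44898, on the same strand, shares 1241 bp and had no count in any library. How reads in the shared stretches were assigned is not stated, and the level of robo2 is uncertain to that extent.

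robo3 (FBgn0041097, 2L, 1256417 to 1296596, plus strand), which in the embryo acts in the lateral position of axon tracts, had 193, 165 and 212 CPM in the knockdown libraries, against 481, 382 and 365 CPM in the control libraries. The groups were far apart. robo3 fell to 46.4% of control, a log2 fold change of −1.11 (SE 0.121, edgeR adjusted p 3.33e-04).

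robo2 and robo3 lie 83489 bp apart on 2L. Of the 14 annotated genes listed between them, 3 had enough counts to test. NLaz, a lipocalin gene, rose to 21.8 to 24.8 CPM in the knockdown libraries, against 11.9 to 12.1 CPM in the control libraries (edgeR adjusted p 0.00358), opposite to both neighbours. CG33922 had 0 counts in every knockdown library and 10, 22 and 50 counts in the control libraries (edgeR adjusted p 0.0261). CG31659 did not pass (edgeR adjusted p 0.847).

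Summed over the 3 receptors, the Robo level was 161 to 187 RPKM in knockdown and 284 to 330.1 RPKM in control. The share of robo1 in this sum was 16.5% to 17.8% in knockdown and 10.2% to 11.8% in control, and that of robo3 was 14.4% to 15.9% in knockdown and 18.0% to 20.5% in control. The robo2 to robo1 ratio averaged 3.98 ± 0.155 in knockdown and 6.27 ± 0.696 in control. The robo3 to robo1 ratio averaged 0.878 ± 0.0808 in knockdown and 1.68 ± 0.119 in control. robo3 and robo1 thus changed places per length, although the order of these 2 in knockdown turns with the length used, the longest transcript putting robo3 at 1.02 times robo1. The robo3 to robo2 ratio moved least, at 0.220 ± 0.0131 in knockdown and 0.270 ± 0.0280 in control (SD, n = 3 each throughout). None of the 5 ratios tested overlapped between the groups. Each had an exact two-sided permutation p of 0.1, the smallest possible, and 0.1 after adjustment over the 5. Except for robo3 to robo2, the ranges of the genes in each group already kept the ratios apart. Those p-values were fixed in advance and add no support, and the Robo ratios share genes.

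**Figure D3:**
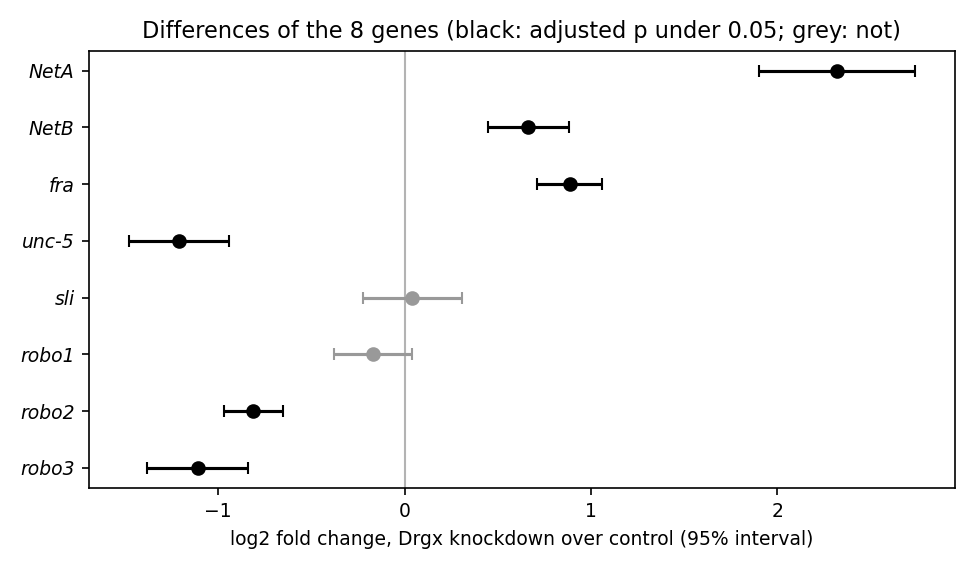
Log2 fold change of the 8 genes in Drgx knockdown over control (horizontal axis) with 95% intervals from the edgeR fit. NetA, at 2.32, NetB and fra lie to the right of 0, unc-5, robo2 and robo3 lie to the left, and the intervals of sli and robo1 include 0.

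By level per length, robo2 came first in both groups, at 121 ± 10.2 RPKM in knockdown and 212 ± 12.2 RPKM in control, or the 94.3 and 97.6 percentile of tested protein-coding genes. In knockdown it was followed by fra at 67.4 RPKM, NetB at 41.6, sli at 39.7, robo1 at 30.4, robo3 at 26.7, NetA at 13.2 and unc-5 at 12.8 RPKM. In that order NetB and sli overlapped, as did robo1 and robo3, and NetA and unc-5. In control it was followed by robo3 at 57.5 RPKM, then by sli at 38.6, fra at 36.4, robo1 at 34.2, unc-5 at 29.6 and NetB at 26.3 RPKM, each of which overlapped the next, and by NetA at 2.65 RPKM. NetA had the lowest level in control, at the 25.8 percentile of protein-coding genes, against the 50.7 percentile in knockdown. unc-5 was at the 49.9 percentile in knockdown and the 71.4 percentile in control.

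Knockdown replicate 2 had the highest NetA and NetB levels and the lowest unc-5, sli, robo1, robo2 and robo3 levels of its group. Without it, the log2 fold change was 2.19 for NetA, 0.57 for NetB, 0.89 for fra, −1.11 for unc-5, −0.75 for robo2 and −1.02 for robo3. All 6 still passed, with edgeR adjusted p from 1.27e-04 to 0.00741.

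The genes whose log2 CPM ran most closely with each member over the 6 libraries were also listed. Between 13 and 231 of 7863 candidate features had a Pearson r over 0.95 with a given member, so that the closest ones stand little apart from many others. The libraries share their group, and the correlations hold both the step between the groups and the spread within them. unc-5 and robo2 were each other's closest feature (r = 0.9991). The next closest to both was dpr20 (r = 0.9987 with unc-5 and 0.9976 with robo2), an immunoglobulin-domain gene at 2.83 CPM in knockdown and 10.8 CPM in control. For robo3 the closest were Gasz, B4 and ths. NetA was followed most closely by Dh44-R2, a diuretic hormone receptor gene (r = 0.9981), by Spt and by the cell death gene rpr. The mean of rpr was 76.2 CPM in knockdown and 9.46 CPM in control (log2 fold change 3.01, edgeR adjusted p 1.98e-05). Cell death was not tested. fra was followed by fkh, Toll-7 and wge, and NetB by CG13630, l(3)neo38 and TBC1D5. Several of the listed features did not themselves pass, among them Spt and CG13630 (edgeR adjusted p 0.066 and 0.743). The features closest to sli were Klp68D, CG12107 and Npl4, and those closest to robo1 were Rabex-5, CG3294 and Rab27.

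Other genes of Netrin and Slit signalling were read from a list of 34, of which 33 were tested. Of these, 2 fell, 0 rose and 31 did not pass, which at 6.06% called is near the 6.21% of all tested features. Many list genes had mean levels between 100 and 1000 CPM, however, where 11.3% of tested features were called. The medians that follow were not matched for level either. The median log2 fold change of the list was 0.01 and the median of its absolute values 0.07, against 0.00 and 0.21 over all tested features. By comparison the median absolute log2 fold change of the 8 ligand and receptor genes was 0.85.

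Of the called genes, the larger fall was that of dlp, for a glypican, a cell-surface heparan sulfate proteoglycan that takes part in Slit signalling. It had 15.5, 16.7 and 18.2 CPM in the knockdown libraries, against 44.7, 45.3 and 50.6 CPM in the control libraries, with no overlap, and fell to 35.9% of control (log2 fold change −1.48, SE 0.128, edgeR adjusted p 6.24e-05). Trim9, for a ubiquitin ligase that binds Frazzled, had 228, 227 and 247 CPM in the knockdown libraries, against 343, 310 and 302 CPM in the control libraries. Trim9 fell to 73.5% of control (log2 fold change −0.44, SE 0.0733, edgeR adjusted p 0.00469).

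Among the list genes that did not pass, chic, ena, dock, Rho1, Cdc42 and Rac1 were named for having the highest level per length. The profilin gene chic had a log2 fold change of −0.07 (95% interval −0.22 to 0.08), and ena, an actin regulator downstream of both pathways, one of 0.07 (−0.05 to 0.19). The adaptor gene dock was at 0.01 (−0.11 to 0.12), and the small GTPase genes Rho1, Cdc42 and Rac1 were at 0.03, −0.02 and −0.02, with intervals within −0.22 to 0.19. The kinase gene Abl was at −0.40 (edgeR adjusted p 0.0592) and RhoGAP93B, for a GTPase-activating protein that binds Robo, at −0.37 (edgeR adjusted p 0.110). Both passed with DESeq2 (adjusted p 0.0033 for Abl and 0.0245 for RhoGAP93B) and with the replicate number as a block (0.018 and 0.0456). Abl also passed with limma-voom (0.0452) and with either other filter on low counts (0.0217 and 0.0218). A transposable element insertion on the other strand overlaps 41.1% of the exon length of Abl. How reads there were assigned is not stated, and the level of Abl is uncertain to that extent. Dscam1, which encodes a further Netrin receptor left out of the receptor shares above, was at 0.17 (SE 0.0616, edgeR adjusted p 0.192). comm, whose product keeps Robo from the growth cone surface, had 5.08 CPM in knockdown and 3.09 CPM in control (edgeR adjusted p 0.289), and comm2 had no count in any library. The lowest fold change of the list was that of AdamTS-A, for a secreted metalloprotease, which had 4.26, 0.204 and 3.84 CPM in the knockdown libraries, against 7.21, 11.8 and 6.68 CPM in the control libraries. The groups did not overlap, knockdown replicate 2 was far below the others, and the gene did not pass (log2 fold change −1.62, SE 0.733, edgeR adjusted p 0.312).

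**Figure D4:**
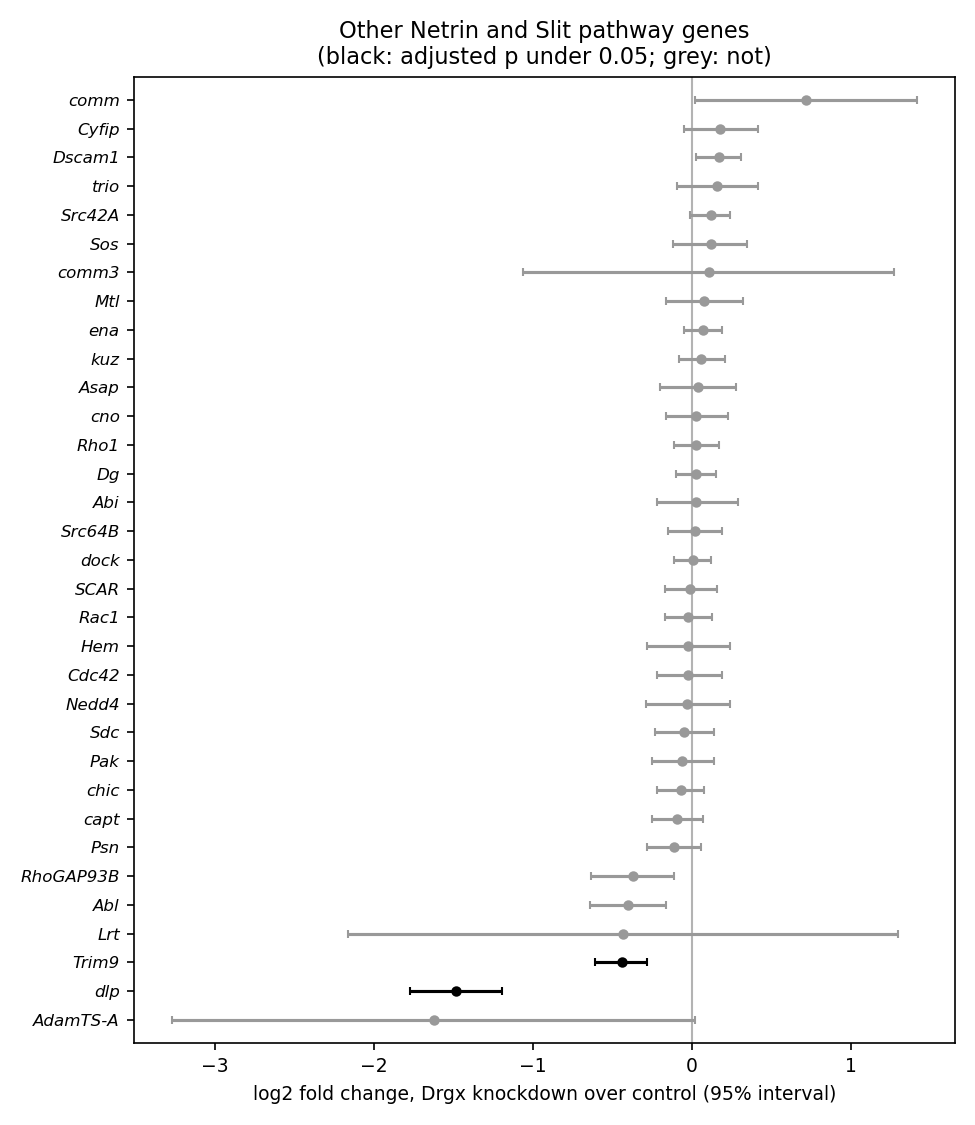
Log2 fold change in Drgx knockdown over control (horizontal axis) with 95% intervals for the 33 tested genes of the pathway list, in order of the fold change. dlp and Trim9, in black, are the genes with an edgeR adjusted p under 0.05, and most others lie close to 0.

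Several measures of other cells or of the genome moved or stayed with these results. Of 9 glial markers, 3 rose (Gs2, loco and nrv2) and 7 had an unadjusted edgeR p under 0.05, and their log2 fold changes ran from 0.01 to 0.84 (median 0.54). Their summed level was 857 to 932 CPM in knockdown and 623 to 709.7 CPM in control, most of it from nrv2, at 600.1 CPM in knockdown and 460.4 CPM in control. The lowest of these fold changes was that of repo. This gene averaged 9.82 ± 1.85 CPM in knockdown and 9.74 ± 2.66 CPM in control (SD, n = 3 each). The confidence interval of its edgeR fold change ran from 0.682-fold to 1.49-fold. Whether the glial content of the libraries differed was not tested. The midline gene sim, the only one listed for the midline, rose to 57.7 to 70.2 CPM in knockdown libraries, against 0.0936 to 0.668 CPM in control libraries. Its log2 fold change was 7.23 (edgeR adjusted p 9.40e-07), with 3, 20 and 23 counts in the control libraries. Of 8 progenitor markers none passed in edgeR, with 3 at an unadjusted p under 0.05, and their sum was 349.9 to 366 CPM in knockdown and 301 to 329.8 CPM in control. Over all tested features, 1630 of 9932 had an unadjusted edgeR p under 0.05, and of the 9 T4/T5 markers 6 did. Hemocyte markers summed to 6.67 to 9.24 CPM in knockdown and 2.65 to 9.06 CPM in control, with NimC1 and He at 0. Among them, Ppn rose to 3.33 ± 0.554 CPM in knockdown, against 0.143 ± 0.115 CPM in control (SD, n = 3 each; edgeR adjusted p 0.00425). Photoreceptor markers summed to at most 2.09 CPM in any library, with ninaE at 0. Of 7 markers of other optic lobe neurons, Lim1 fell to 621 CPM in knockdown, against 1063 CPM in control, and ort was at 0. Lim1 was at the 98.2 percentile of tested protein-coding genes in control. Means of bsh, Vsx1, ap and ey were 1.83 to 4.48 CPM in knockdown and 1.89 to 4.83 CPM in control. hth had 60.1 CPM in knockdown and 67.5 CPM in control. The cell source of the Lim1 transcript was not tested. The part of other cell types in the differences of the 8 genes was not tested.

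The share of tested features called was 5.96% on 2L and 5.67% on 2R, where 6 of the 8 genes lie, and 5.42% on the X, against 6.97% on 3L and 7.22% on 3R.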

How the data were processed

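The authors deposited 1 table of raw counts per FlyBase feature for 6 libraries (3 per group). The submitters' processing notes name STAR, DESeq2 and BDGP6, and the counting program, annotation release and strand setting are not given in the sources used here. Per the labels, libraries were made with SMART-Seq v4, which amplifies full-length cDNA without molecule tags.

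Features were matched by identifier to Ensembl 115 (BDGP6.54) for symbols, positions and exon lengths (23851 of 23932 matched). The list names Sra-1 and sdc were matched as Cyfip and Sdc through RefSeq synonyms. The count of 10 used by filterByExpr left 9932 of 15551 features with any count. edgeR 4.0.16 (R 4.3.3) with TMM factors of 0.973 to 1.02 and the quasi-likelihood F test compared the groups, with Benjamini-Hochberg adjustment over all tested features and a threshold of 0.05. SE is the absolute log2 fold change over the square root of F. A count of 0 allows up to 3 counts, or 0.0690 to 0.102 CPM (counting error only). RPKM used the union of exons. On simulated counts edgeR recovered 149 of 185 tested genes changed 4-fold, with 15 false calls beside these 149, among 9557 tested. Smaller changes were not simulated.

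The members, lists and tests were chosen with earlier results of these data known. Named genes were the 8 members, Drgx, list genes that passed, 6 abundant list genes that did not, and the 3 features most like each member. Further genes were named with their values in view. The alternatives were DESeq2 1.42.0 and its size factors, library size only, limma-voom (3.58.1), 2 other filters, a replicate block, the longest transcript as length, and each library left out.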

Additional observations from a re-analysis of the deposited data

How the results depend on the processing

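NetA, NetB and fra stayed higher, and unc-5, robo2 and robo3 lower, with an adjusted p under 0.05 in all 13 alternatives run for each (other scaling, filter, test, replicate block, and each library left out). Their log2 fold changes ran from 2.19 to 2.49, 0.57 to 0.73, 0.82 to 0.94, −1.29 to −1.11, −0.86 to −0.75 and −1.19 to −0.98 in that order of genes. robo1 ran from −0.25 to −0.07 and sli from −0.09 to 0.16, neither passing in any, and sli was negative without knockdown replicate 1 (−0.02) and without control replicate 3 (−0.09). The cause was not tested.

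All tested features called numbered 617, against 952 with DESeq2 and 399 to 556 when 1 library was left out, the lowest without control replicate 2. Pathway list genes called numbered 4 with DESeq2 and 4 with the replicate block, which added Abl and RhoGAP93B to dlp and Trim9. They numbered 3, with Abl, under limma-voom and both other filters, and 2 with either other scaling and in each fit without 1 library. With the block 556 of all tested features were called, and it changed no call of the 8 genes. Replicate numbers did not pair the libraries: same-numbered libraries had correlations of −0.0591 to 0.0246 in their deviations from group means, and 1 of 6 libraries correlated best with its own number.

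Values near 0 changed sign for Rho1 without control replicate 1 (−0.03), for dock without knockdown replicate 1 (−0.01) or 2 (−0.0007) or control replicate 3 (−0.02), for Cdc42 with library size only (0.01) or without knockdown replicate 1 (0.06), control replicate 2 (0.03) or control replicate 3 (0.02), and for Rac1 with library size only (0.01) or without knockdown replicate 2 (0.0020) or control replicate 2 (0.01). Over the fits that left out 1 library, Cdc42 ran from −0.10 to 0.06, Rac1 from −0.06 to 0.01 and dock from −0.02 to 0.02. The largest shift of the median over all features was 0.028, with library size only.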
